A study of Homo sapiens with 346 samples.

Results

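The kinesin genes are described here in single cells of the human lines HCT-116, from a colorectal carcinoma, and in cells labelled HepG2, a line from a liver carcinoma, that were either sequenced live or after storage in methanol. A gene was taken as a kinesin when its symbol was KIF followed by a number and at most 1 letter from A to C and 1 further digit. The rule found 38 genes among the 31463 listed in the tables of the lines, with 37 in the HCT-116 table and 37 in the HepG2 table, since KIF19 was listed for HCT-116 and KIF1A for HepG2 alone. Each gene was given a role from textbook knowledge of its protein, with earlier results of these data known. The mitotic role held 12 of the listed genes, the transport role 15, and 11 were placed in neither. KIF2B, a mitotic kinesin, was listed in neither table.

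Kinesins are motor proteins that bind microtubules and hydrolyse ATP, and most of them walk along the microtubule carrying a load. Mitotic kinesins build and elongate the spindle, move chromosomes, trim microtubule ends and organise the midzone at which the cell divides, and dividing cells make many of their transcripts in the last part of the cycle. Transport kinesins carry vesicles, organelles and RNA between the cell centre and its periphery, or along cilia, in dividing and resting cells alike.

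The groups were live HCT-116 cells (91 cells with values), fixed HCT-116 cells (92), live HepG2 cells (68) and fixed HepG2 cells (83), all grown in the same medium with serum and antibiotics. Fixed cells came from the cultures that gave the live ones, and were kept for 1 week in 80% methanol before Smart-seq2, a full-length cDNA method without molecular identifiers. Each library was 1 sorted cell, and the labels named no culture, so each group was 1 sample. No p-value was therefore computed, spreads are over cells, and the treatment cannot be told apart from the preparation and sort behind each group. HepG2 was prepared more than once according to the study's methods, but the labels do not separate the preparations. Of 346 labelled cells, 12 had no column of values. Total reads per cell ran from 0.7 to 5.3 M in live HCT-116 cells and from 0.2 to 4.9 M in fixed ones, and from 1.5 to 3.7 M and 1.0 to 2.8 M in HepG2 cells. The genes detected per cell were fewer in fixed cells, with medians of 10359 against 12031 in HCT-116 and 12293 against 13887 in HepG2. Ribosomal RNA genes held a median of 24.8% of the TPM (a relative transcript abundance, divided by transcript length and scaled to the same total in every cell) of live HCT-116 cells and 7.66% of that of fixed ones, against 6.86% and 2.46% in HepG2. A live and a fixed HepG2 column held identical values. The marker values go against the label HepG2, which is kept below as a name only. In these cells, only 1 of the 9 listed hepatocyte markers, SERPINA1, reached a mean of 1 TPM, AHSG and ASGR1 were at 0 in live cells, and the summed level of the list had a median of 0.121 TPM in live cells (range 0 to 35.9) and 0 in fixed cells (range 0 to 89.7). In HCT-116, 5 of 8 intestinal markers were listed and 2 reached a mean of 1 TPM, CDX2, a transcription factor (7.47 TPM before and 5.44 TPM after fixation), and KRT20 (2.54 and 1.74), while GPA33 was at 0 in live cells and CDH17 and EPHB2 at 0.0619 and 0.260 TPM. The summed levels of blood and fibroblast markers had medians of at most 0.567 TPM in each group, but single cells reached 55.3 TPM of the blood list (live HepG2) and 252.7 TPM of the fibroblast list (fixed HepG2, where LUM had a mean of 5.56 TPM), and their part in the differences was not tested.

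The promoters of the kinesins were read first, because the levels of the mitotic members varied together from cell to cell. A short element written TTTGAA or TTTAAA, the cell cycle genes homology region, and the CCAAT box are known in promoters of genes used late in the cell cycle. RefSeq promoters of GRCh38.p14, from 250 bases before to 50 bases after the annotated start, were searched on both strands. Promoters were matched for 13 of the 13 mitotic genes of the list, KIF2B included, 12 of 15 transport genes and 8 of 11 other kinesins. TTTGAA was found in 9 of 13 mitotic, 1 of 12 transport and 0 of 8 other genes, against 15.2% of 35116 promoters. TTTAAA was found in 4, 1 and 0 of them, against 12.2%, and CCAAT in 10, 4 and 3, against 34.6%. CCAAT together with either of the other elements was found in 9 of 13 mitotic genes and in 1 of 12 transport genes, KIF5B, against 9.27% of all promoters. KIF4B, a nearly identical copy of KIF4A, was counted beside it as a separate gene. The kinesins were counted by gene and the background by promoter. No matches overlapped in the stretches printed, and a match is a description of letters and not a known site.

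The 150 bases before the start are shown for 5 mitotic kinesins, chosen by hand. KIF5B, the transport kinesin with the same pair of elements, and KIF3A, a transport kinesin with none of them, follow. Of the mitotic kinesins not shown, KIF18A held both elements before the start. So did KIF14, with TTTAAA at 198 bases and CCAAT at 22. KIF15 held TTTGAA at 35 bases and no CCAAT. KIF2C held TTTAAA from 3 bases before the start and no CCAAT, and KIF14, KIF18B, KIF20B and KIF4B held TTTGAA after it. The stretches run 5′ to 3′ on the strand of the gene, with each match in capitals (ATTGG and TTCAAA are CCAAT and TTTGAA read on the other strand).
KIF23 (chr15:69414199-69414348, plus strand): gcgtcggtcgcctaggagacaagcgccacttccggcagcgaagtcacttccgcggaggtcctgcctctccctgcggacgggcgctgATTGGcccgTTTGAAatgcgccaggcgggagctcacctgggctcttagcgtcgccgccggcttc
KIF20A (chr5:138178962-138179111, plus strand): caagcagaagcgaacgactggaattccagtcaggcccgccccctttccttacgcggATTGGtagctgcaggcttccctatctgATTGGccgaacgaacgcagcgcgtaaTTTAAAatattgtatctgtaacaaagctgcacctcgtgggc
KIF11 (chr10:92592980-92593129, plus strand): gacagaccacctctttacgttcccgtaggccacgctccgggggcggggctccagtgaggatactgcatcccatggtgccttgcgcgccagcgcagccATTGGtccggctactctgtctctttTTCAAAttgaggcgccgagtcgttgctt
KIF4A (chrX:70289954-70290103, plus strand): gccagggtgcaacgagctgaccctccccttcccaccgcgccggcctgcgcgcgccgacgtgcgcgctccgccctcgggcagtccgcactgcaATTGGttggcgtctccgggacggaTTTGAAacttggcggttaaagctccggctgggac
KIF22 (chr16:29790601-29790750, plus strand): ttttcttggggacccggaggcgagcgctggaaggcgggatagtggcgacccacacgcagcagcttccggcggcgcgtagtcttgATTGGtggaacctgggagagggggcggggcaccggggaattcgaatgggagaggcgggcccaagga
KIF5B (chr10:32056426-32056575, minus strand): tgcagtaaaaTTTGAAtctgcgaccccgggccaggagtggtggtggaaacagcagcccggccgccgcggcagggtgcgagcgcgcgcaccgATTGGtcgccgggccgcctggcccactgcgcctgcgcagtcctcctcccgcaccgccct
KIF3A (chr5:132737547-132737696, minus strand): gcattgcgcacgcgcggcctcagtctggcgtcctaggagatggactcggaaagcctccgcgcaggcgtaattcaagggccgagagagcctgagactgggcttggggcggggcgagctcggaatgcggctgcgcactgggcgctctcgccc

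In KIF23 the CCAAT match began 64 and the TTTGAA match 55 bases before the start, in KIF4A 58 and 34, and in KIF11 53 and 28. KIF20A held a pair of CCAAT matches, at 94 and 67 bases, and TTTAAA at 41. KIF22 held CCAAT alone, at 66 bases. In KIF5B the CCAAT match lay in the same stretch, at 59 bases, but TTTGAA lay farther out, at 140.

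Mitotic kinesins were the more abundant role in every group, and their levels were very uneven between cells. Their means summed to 240.3 TPM in live HCT-116, 237 TPM in fixed HCT-116, 346 TPM in live HepG2 and 299.6 TPM in fixed HepG2 cells, against 70.6, 67.7, 79.2 and 68.9 TPM for the transport kinesins. KIF22, a chromokinesin that pushes chromosome arms toward the spindle equator, had the highest mean of all kinesins in each group. In HCT-116 it measured 70.1 ± 49.4 TPM (SD over 91 live cells; lowest 0, median 67.98, highest 235) and 58.04 ± 49.2 TPM in 92 fixed cells (lowest 0, median 50.9, highest 238). In HepG2 it measured 148.5 ± 86.5 TPM in 68 live cells (12.6, 143.05 and 333) and 110.97 ± 64.6 TPM in 83 fixed cells (0, 110 and 229). In HCT-116 the groups overlapped over nearly the whole range, and in HepG2 the levels above 229 TPM were reached in live cells alone. The tables of the lines were made separately, so their levels stand side by side without a comparison.

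Motors of the spindle midzone followed. KIF23, which bundles midzone microtubules with its partner RACGAP1 and is needed for cytokinesis, measured 29.8 ± 33.3 TPM in the live HCT-116 group and 29.9 ± 37.6 TPM in the fixed one, with medians of 18.5 and 11.2 and highest cells of 151.01 and 156.3. In HepG2 it measured 57.9 ± 61.97 and 56.6 ± 56.8 TPM, with medians of 33.2 and 45.4. Its SD was as large as its mean in each group. KIF20A, which brings the chromosomal passenger complex to the midzone, measured 29.1 ± 39.4 TPM in live HCT-116 cells, 34.2 ± 53.2 TPM in fixed HCT-116 cells, 42.9 ± 65.8 TPM in live HepG2 cells and 44.9 ± 59.6 TPM in fixed HepG2 cells. Its medians, 10.5 and 11.8 TPM in HCT-116 and 9.37 and 17.9 TPM in HepG2, lay well under the means, and the highest cell of a group held 216 to 272 TPM. KIF4A, a chromokinesin that also limits the length of midzone microtubules, measured 11.1 ± 9.65 and 13.1 ± 14.8 TPM in HCT-116 and 14.9 ± 14.2 and 13.2 ± 11.7 TPM in HepG2. KIF4B, an intronless copy nearly identical to KIF4A, did not exceed a mean of 0.0702 TPM, and reads shared between the copies make its values uncertain. KIF14 and KIF20B, both needed for the end of cytokinesis, had means of 2.80 to 3.96 and 6.24 to 8.58 TPM over the groups.

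Among the motors of spindle assembly and microtubule ends, KIF2C, which takes microtubules apart at kinetochores, measured 43.3 ± 45.3 TPM before and 38.6 ± 45.997 TPM after fixation in HCT-116, and 34.2 ± 40.5 and 29.4 ± 26.4 TPM in HepG2. KIF11, the motor that slides spindle microtubules apart, measured 11.5 ± 11.02 and 10.97 ± 11.9 TPM in HCT-116 and 15.02 ± 14.5 and 15.2 ± 12.4 TPM in HepG2. KIF15, which helps to keep the spindle bipolar, had means of 5.46 to 8.30 TPM. KIF18A, which damps chromosome movement at microtubule plus ends, measured 21.1 ± 20.1 and 29.9 ± 27.3 TPM in HCT-116 and 10.2 ± 14.3 and 8.96 ± 12.4 TPM in HepG2. KIF18B, a plus-end motor that works with KIF2C on astral microtubules, measured 8.10 ± 10.8 TPM in live HCT-116 cells (lowest 0, median 4.81, highest 66.6) and 2.32 ± 3.53 TPM in fixed ones (0, 0.350 and 18.3). In HepG2 its means were 3.72 ± 4.69 TPM for the live group and 2.32 ± 2.67 TPM for the fixed group, with medians of 1.62 and 1.39. The fixed HCT-116 cells were low in KIF18B, although the ranges overlapped from 0 to 18.3 TPM.

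The transport kinesins held 1 abundant member. KIF5B, the ubiquitous heavy chain of conventional kinesin that carries mitochondria and vesicles, measured 40.2 ± 16.1 TPM in live HCT-116 cells (lowest 12.1, median 40.6, highest 106.99) and 34.5 ± 15.2 TPM in fixed ones (6.84, 32.9 and 81.2). In HepG2 it measured 47.4 ± 23.6 TPM in live (9.21, 43.2 and 138.4) and 36.7 ± 15.7 TPM in fixed cells (4.17, 35.7 and 75.9). The live value of 9.21 TPM came from the column held under both labels. No cell had a gene TPM of 0 for KIF5B, although the deposited transcript values held reads of it in 96.4% of fixed HepG2 cells. Its coefficient of variation over cells (SD divided by mean) was 0.400 to 0.498 over the groups. This was the lowest of the kinesins with a mean of at least 1 TPM. That of the mitotic kinesins ran from 0.582 for KIF22 in HepG2 to 1.56 for KIF20A in fixed HCT-116 cells. KIF3A and KIF3B, which pair as the motor of cilium assembly, measured 9.96 ± 6.70 and 4.13 ± 2.71 TPM in live HCT-116 cells, 14.4 ± 10.2 and 3.21 ± 3.11 TPM in fixed ones, 7.32 ± 6.02 and 3.96 ± 2.32 TPM in live HepG2 cells, and 7.84 ± 6.63 and 2.61 ± 2.17 TPM in fixed ones. KIF3A had the higher mean of the pair in each group, by less than its own SD except in fixed HCT-116 cells. KIF3C, the alternative partner of KIF3A, reached a mean of 1 TPM in HepG2 alone, at 2.56 ± 3.10 TPM in live cells and 1.497 ± 1.99 TPM in fixed ones. KIF21A, which slows microtubule growth at the cell cortex, measured 4.88 to 6.82 TPM over the groups. KIF1B, a carrier of mitochondria and synaptic vesicle precursors, measured 2.38 to 3.46 TPM, and KIF1C, a carrier of vesicles and RNA, 1.67 to 3.20 TPM. KIF16B, which moves early endosomes, measured 1.71 to 2.78 TPM, KIF13A, a carrier of endosomal cargo, 0.677 to 1.74 TPM, and KIF13B, its close relative, 0.754 to 2.33 TPM.

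Of the other kinesins, KIF2A, a microtubule depolymerase of the same family as KIF2C that also acts outside mitosis, was the most abundant, at 5.86 ± 3.76 TPM in live HCT-116 cells, 8.42 ± 6.69 TPM in fixed HCT-116 cells, 6.38 ± 3.99 TPM in live HepG2 cells and 11.1 ± 6.51 TPM in fixed HepG2 cells. KIF9, KIF12, KIF24 and KIF27 reached a mean of 1 TPM in at least 1 group, none above 4.83 TPM. The neuronal kinesins KIF1A, KIF5A, KIF5C, KIF17 and KIF21B stayed under 1 TPM in each group, the highest being KIF5C at 0.979 TPM, as did KIF4B, KIF6, KIF7, KIF19, KIF25, KIF26A and KIF26B. Below, these 12 genes are not described singly. The exceptions, named at the end, are KIF5A and KIF5C, each past 2-fold between live and fixed cells of 1 line at these low levels.

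**Figure D1:**
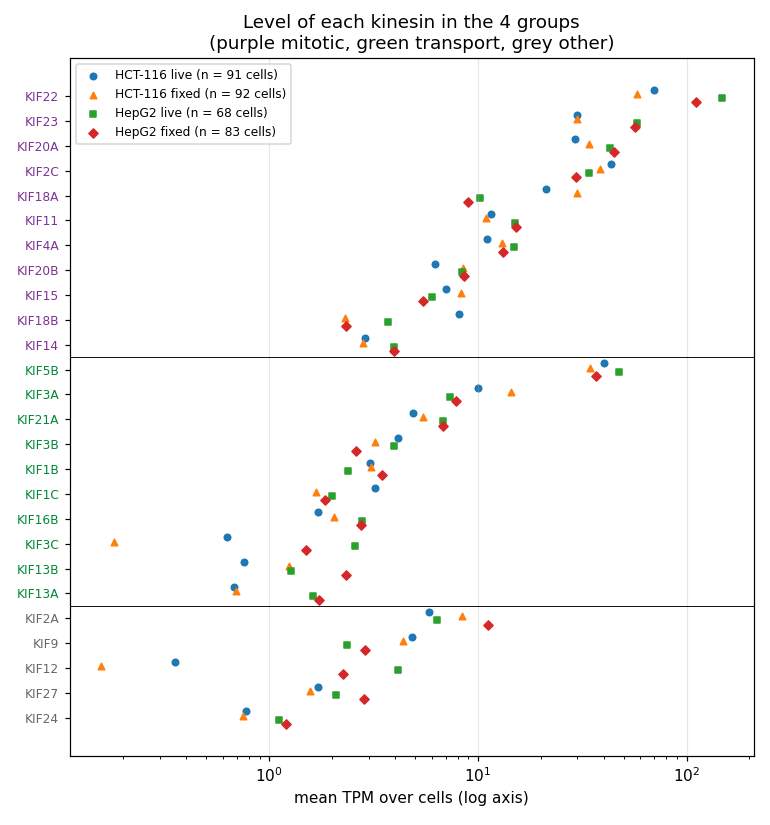
Mean TPM over cells (log axis) of the 26 kinesins with a mean of at least 1 TPM in any group, 1 marker per group, ordered by role and by level. KIF22 lay highest, KIF5B stood at 34.5 to 47.4 TPM above the other transport kinesins, and KIF18B in HCT-116 showed the widest gap between live and fixed cells among the mitotic kinesins.

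Abundance and detection did not go together across roles. A gene was called detected at any TPM above 0. KIF22 was detected in 88 of 91 live and 80 of 92 fixed HCT-116 cells (96.7% and 86.96%), and in 68 of 68 live and 82 of 83 fixed HepG2 cells. KIF20A, whose mean in fixed HCT-116 cells was close to that of KIF5B, was detected in 69.2% of live HCT-116 cells (63 of 91, 95% exact interval 58.7 to 78.5%) and 66.3% of fixed ones (61 of 92, 55.7 to 75.8%), and KIF5B in all of them (91 of 91, interval from 96.03%, and 92 of 92, from 96.07%). KIF3B, at means of 4.13 and 3.21 TPM, was detected in 91 of 91 live and 91 of 92 fixed HCT-116 cells. The intervals cover counting error only, and PCR reads without molecular identifiers are not independent molecules. Within a cell, a median of 11 of the 12 listed mitotic kinesins was detected in live HCT-116 cells (range 1 to 12), 9 in fixed HCT-116 cells (range 0 to 12), and 11 in both groups of HepG2 cells. Cells with 3 or fewer mitotic kinesins numbered 13 live and 20 fixed for HCT-116 and 2 live and 8 fixed for HepG2, and 2 of the fixed HCT-116 cells had none. No cell fell to 3 transport kinesins, the lowest count being 4 of 14 in a fixed HCT-116 cell.

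Lower detection in fixed cells was no more frequent among the kinesins than among all genes, so the values below say nothing particular of the family. Among the genes compared between live and fixed cells (a mean of both group means of at least 1 TPM), the detection intervals did not overlap and the share was lower in fixed cells for 1 of 21 kinesins in HCT-116, KIF1C, against 16.7% of the 11813 genes compared, and for 2 of 26 in HepG2, KIF3A and KIF12, against 9.59% of 12486 genes. None was higher in fixed cells, against 0.0423% and 0.400% of genes. KIF1C was detected in 90 of 91 live (98.9%, interval 94.03 to 99.97%) and 79 of 92 fixed HCT-116 cells (85.9%, 77.05 to 92.3%). With the reads of every cell thinned to 500000, which left out 3 fixed cells, the expected shares were 93.6% and 74.1%. KIF3A was detected in 68 of 68 live and 72 of 83 fixed HepG2 cells (86.7%, 77.5 to 93.2%), and the thinned shares were 92.5% and 82.3%. No intervals were computed for the thinned shares, so the lack of overlap is not shown at equal reads for either gene. KIF12, a kinesin of epithelia of kidney and liver, was detected in 60.3% of live and 28.9% of fixed HepG2 cells, with means of 4.13 ± 6.75 and 2.26 ± 9.73 TPM. A single fixed cell held 82.97 TPM of it, and without that cell the fixed mean was 1.27 TPM. For the 11 mitotic kinesins compared, the intervals of live and fixed cells overlapped in both lines.

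The main question of the design was what methanol storage did to the levels. The difference is log2 of the mean TPM of fixed cells plus 0.1 over that of live cells plus 0.1, each line by itself, and genes past 2-fold were counted. The added 0.1 TPM understates the difference of low genes. Of the 37 kinesins listed in each table, 21 in HCT-116 and 26 in HepG2 passed the filter on low values. In HCT-116, 1 of 11 mitotic, 0 of 7 transport and 0 of 3 other kinesins were at least 2-fold lower in fixed cells, against 8.41% of genes, and none was 2-fold higher, against 2.57%. In HepG2, 0 of 11 mitotic, 0 of 10 transport and 0 of 5 other kinesins were 2-fold lower, against 9.13% of genes, or higher, against 4.50%. Without the highest fixed cell of each gene, 1 of 5 other kinesins was 2-fold lower in HepG2, KIF12 (log2 difference −1.62), against 11.5% of genes. For the mitotic kinesins the median was 0.00 (HCT-116) and −0.15 (HepG2), and for the transport kinesins 0.02 and −0.01, beside medians of 0.16 and 0.14 over all genes compared. Those medians over all genes moved to −0.03 and −0.06 when each cell was rescaled by its median ratio to the genes found in at least 90% of cells, and to −0.16 and 0.09 when ribosomal RNA genes were left out, so differences relative to the median of all genes are given too.

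The kinesin past 2-fold was KIF18B (chr17:44924711-44947773 in GRCh38, minus strand). Its log2 difference in HCT-116 was −1.76, with means of 8.10 TPM (live) and 2.32 TPM (fixed), and −1.93 relative to all genes, and the relative value was −1.92 and −1.93 under the rescalings and −1.67 in cells paired on total reads. With an added 1 TPM the difference was −1.46, and between means of log2(TPM + 1) −1.01, or −0.97 relative to all genes. Its median number of reads was 31.7 per live and 2.01 per fixed cell, while the share of cells with the gene detected was 68.1% and 59.8%. In HepG2 its difference was −0.66, and 0.16 in paired cells. Whether the lines differ was not tested.

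KIF1C, whose shares of detection also differed, stood next in HCT-116 at −0.90, from 3.20 ± 2.24 TPM (median 2.85) to 1.67 ± 1.79 TPM (median 1.19). Relative to all genes it stood at −1.06, and at −0.97 and −1.05 under the rescalings and −1.18 in cells paired on total reads. Without that reference it passed 2-fold under both rescalings (−1.003 and −1.20), where the median of all genes was also lower, and in the paired cells (−1.01), but not with an added 1 TPM (−0.65) or between means of log2(TPM + 1) (−0.72). In HepG2 it stood at −0.11, and at 0.07 in paired cells. KIF3B was lower in fixed cells of both lines, at −0.36 and −0.59, or −0.52 and −0.73 relative to all genes, while its partner KIF3A stood at 0.53 and 0.10. Relative to all genes KIF3A was at 0.37 in HCT-116 and −0.05 in HepG2, where the value was 0.01 after rescaling by the median ratio. KIF5B was at −0.22 in HCT-116 and −0.37 in HepG2, and in paired HepG2 cells at 0.11. KIF2A was higher in fixed cells of both lines, at 0.52 and 0.79, and relative to all genes at 0.35 and 0.65. In HepG2, KIF13B was at 0.83 and KIF1B at 0.53, whereas KIF3C was at −0.74 and KIF12 at −0.84. Rescaling by the median ratio took KIF12 to −1.04, but relative to all genes it stood at −0.99 before and −0.98 after it. On the deposited scale and with all cells, none of the genes from KIF3B on passed 2-fold, and each difference was smaller than the SD over cells of log2(TPM + 1) of its gene.

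The remaining mitotic kinesins lay between −0.27 (KIF22) and 0.50 (KIF18A) in HCT-116 and between −0.42 (KIF22) and 0.07 (KIF20A) in HepG2. In HepG2, all 11 mitotic kinesins lay under the median of all genes, but 1 of 11 lay above it after rescaling by the median ratio, and 8 of 11, with all 11 differences above 0, in the 38 live and 38 fixed cells paired on total reads. The makeup of the groups by cell cycle differed among those cells. The 20 mitotic reference genes (none of them a kinesin of the rule) had a mean log2(TPM + 1) of 3.95 ± 1.96 in all live and 4.15 ± 1.89 in all fixed HepG2 cells, but 3.44 and 4.79 in the paired ones, and the part of this in the differences of the mitotic kinesins was not tested. In HCT-116 the reference stood at 3.92 ± 2.03 and 3.82 ± 2.15, and at 3.89 and 4.07 in the 53 pairs.

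**Figure D2:**
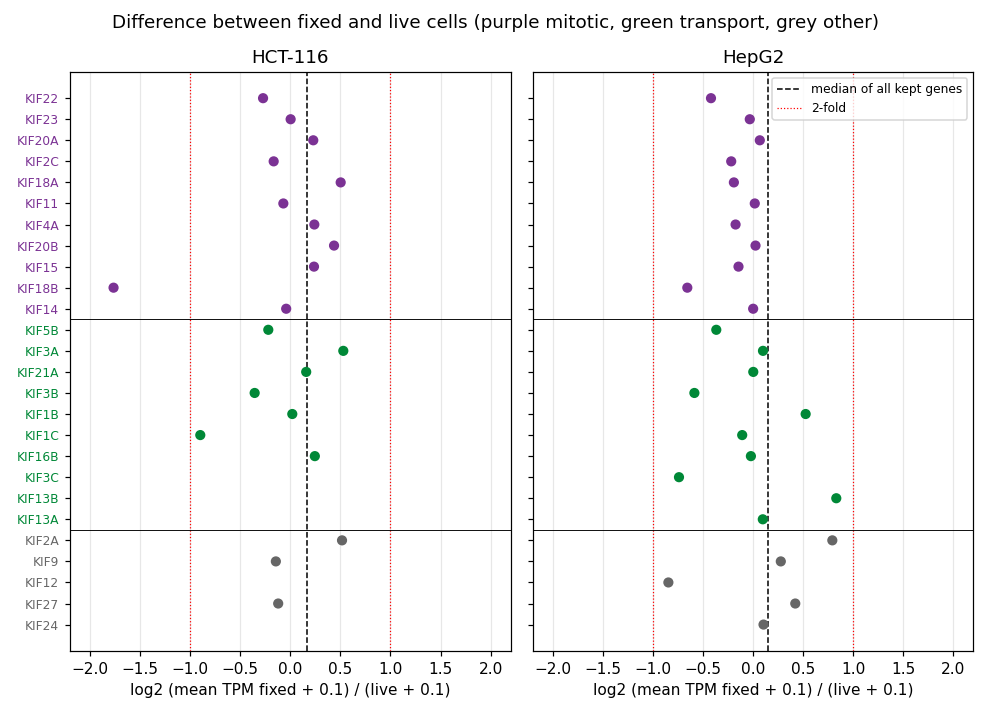
Log2 difference between fixed and live cells of each kinesin compared in HCT-116 (21 genes) and HepG2 (26 genes), with the median of all genes compared (dashed) and 2-fold (dotted). KIF18B in HCT-116, at −1.76, is the 1 kinesin outside the dotted lines.

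Across the kinesins compared in HCT-116 the differences fell with GC content. The same correlation over all genes was not computed, so the values below are not shown to be a trait of the family. Across the 21 kinesins compared in HCT-116, Spearman's rho between the difference and the GC content of the MANE Select transcript (GENCODE 44) was −0.65, and with its length 0.18. Across 26 kinesins in HepG2 the values were −0.34 and 0.59. These are descriptions across genes, which are not independent replicates, and length and GC content were themselves related (rho −0.43 and −0.36). KIF18B and KIF22 had the highest GC content of the mitotic kinesins, 58.4% and 58.1%, and KIF1C had the highest of the transport kinesins compared in HCT-116, 54.9%. KIF20B, KIF18A and KIF3A, which stood at 0.44 to 0.53 in HCT-116, had 34.3%, 36.03% and 37.4%. In HepG2, KIF13B, at 54.6% GC, went against this order with a difference of 0.83.

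**Figure D3:**
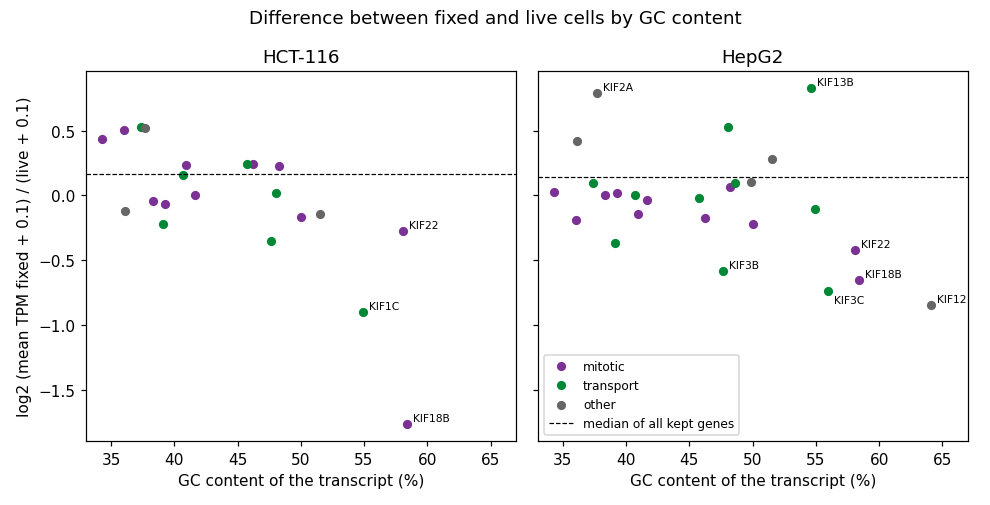
Log2 difference between fixed and live cells against the GC content of the transcript (percent), 1 point per kinesin compared, with the median of all genes as a dashed line. In HCT-116 the points fall toward KIF1C and KIF18B at the right (rho −0.65), and in HepG2 KIF13B and KIF12 lie far apart on the same side.

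Among genes that passed the filter on low values, some listed as transport partners passed 2-fold in both lines, where on the deposited scale no transport kinesin of the naming rule did. The partner list also holds KIFC2 and KIFC3, which are kinesins outside that rule. Of 18 mitotic partners compared, 1 was 2-fold higher in fixed HCT-116 cells, against 2.57% of all genes, namely INCENP, the scaffold of the chromosomal passenger complex, from 0.884 ± 1.39 to 2.49 ± 3.26 TPM (log2 difference 1.40), and 1 was 2-fold lower in fixed HepG2 cells, against 9.13%, namely KIFC1, a minus-end kinesin outside the naming rule, from 14.9 ± 15.1 to 6.07 ± 9.39 TPM (−1.28). Of 15 transport partners compared in HCT-116, 4 were 2-fold lower, against 8.41% of all genes, and none higher, and their median was −0.57. KLC2 and KLC3, light chains that tie cargo to the KIF5 heavy chains, went from 14.1 ± 8.76 to 3.87 ± 5.14 TPM (−1.84) and from 9.99 ± 9.30 to 3.48 ± 5.09 TPM (−1.49). RHOT2, a mitochondrial receptor for these motors, went from 11.05 ± 7.35 to 3.23 ± 4.42 TPM (−1.74), and KIFC3, another minus-end kinesin, from 2.43 ± 2.56 to 1.07 ± 2.69 TPM (−1.11). After rescaling by the median ratio 7 of 15 were 2-fold lower, against 11.1% of genes, with KLC4, MAPK8IP3 and MADD added. Of 13 compared in HepG2, 3 were 2-fold lower, against 9.13% of genes, again KLC2 (−1.45), KLC3 (−1.74) and RHOT2 (−1.73, from 42.2 ± 16.6 to 12.6 ± 11.11 TPM), and 1 was higher, against 4.50%, TRAK1, an adaptor of mitochondria, at 1.08 but 0.87 after rescaling by the median ratio and 0.95 without its highest fixed cell, while the median of the 13 was 0.09. The heavy chain KIF5B, which these light chains serve, differed by −0.22 and −0.37.

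Within a cell, the balance of the roles does not depend on how that cell was scaled. The summed TPM of the mitotic kinesins was a median of 3.001 times that of the transport kinesins in live HCT-116 cells (quartiles 1.28 and 4.81) and 2.40 times in fixed ones (0.871 and 5.69). In HepG2 the medians were 3.80 (1.85 and 5.90) and 4.28 (1.53 and 6.26). The quartiles of live and fixed cells overlapped widely. The mitotic sum was the larger in 76.9% of live and 72.8% of fixed HCT-116 cells and in 88.2% and 83.1% of HepG2 cells. The mitotic sum ran from 1.78 to 1065 TPM over live HCT-116 cells and from 0 to 908 TPM over fixed ones, and from 23.1 to 1047 and 4.53 to 939 TPM in HepG2. The transport sum stayed between 12.1 and 160.96 TPM in every cell. The value of 12.1 TPM came from the HepG2 column held under both labels, so its treatment is not known.

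The roles parted most clearly in how single cells of a group varied. For each kinesin with a mean of at least 1 TPM in a group, Spearman's rho was computed over the cells of that group with the mean log2(TPM + 1) of the mitotic reference genes. The cells of a group share a culture and a preparation, and the values are descriptions. The mitotic kinesins and the reference genes were both chosen as mitotic genes, with earlier results of these data known. That choice favours a high rho, so the contrast with all genes is no independent support for the roles. All 11 mitotic kinesins reached a rho of 0.5 in each group, whereas of all genes 3.32% did in live HCT-116 cells, 3.26% in fixed HCT-116 cells, 6.97% in live HepG2 cells and 2.11% in fixed HepG2 cells. Their median was 0.86 and 0.82 in live and fixed HCT-116 cells and 0.87 and 0.78 in HepG2. KIF2C (0.92, 0.92, 0.91 and 0.88) and KIF23 (0.91, 0.87, 0.90 and 0.94) stood highest, and KIF18B in fixed HepG2 cells (0.69) and KIF15 in fixed HepG2 cells (0.71) lowest. With 20 reference genes of S phase, the mitotic kinesins had medians of 0.44, 0.44, 0.40 and 0.39, and KIF11 and KIF15 were among the higher ones in live cells (0.61 and 0.49 for HCT-116, 0.50 and 0.52 for HepG2), while KIF20A was lowest there, at 0.17 and 0.22. With the number of genes detected in a cell, the mitotic medians were 0.28, 0.29, 0.28 and 0.15.

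The transport kinesins had medians of 0.16, 0.05, 0.14 and −0.02 with the mitotic reference, near those of all genes (0.09, 0.09, 0.14 and 0.07). KIF5B was the exception. Its rho reached 0.70 among live HCT-116 cells, 0.58 among fixed ones and 0.69 among live HepG2 cells, at percentiles of 99.03, 98.2 and 98.7 of all genes, and 0.30 in fixed HepG2 cells, at a percentile of 90.3. The next transport kinesin, KIF1C in live HCT-116 cells, stood at 0.28. KIF5B followed the S phase reference less, at 0.22, 0.19, 0.18 and 0.21, and the number of genes detected at 0.19, 0.25, 0.29 and 0.32. Its median rho with the mitotic kinesins was 0.57, 0.50, 0.63 and 0.29, and with the other transport kinesins 0.06, 0.01, 0.14 and 0.15. Among the other kinesins, KIF2A reached 0.54 in live HepG2 cells and 0.24 in fixed ones, and 0.15 and 0.08 in HCT-116. KIF24, which caps centrioles and restrains cilia in cycling cells, stood at 0.39 and 0.44 in HepG2, and at 0.53 and 0.44 with the S phase reference.

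Mitotic kinesins also followed each other. Over the 55 pairs among 11 genes, the median rho was 0.73 for live HCT-116, 0.65 for fixed HCT-116, 0.74 for live HepG2 and 0.66 for fixed HepG2 cells, with lowest pairs of 0.59, 0.50, 0.52 and 0.44. The closest pair was KIF23 with KIF2C in all groups except live HepG2 cells, where it was KIF20A with KIF4A at 0.92. Over the pairs of transport kinesins the medians were 0.03, −0.01, 0.08 and 0.08, and the highest pair stood at 0.35.

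**Figure D4:**
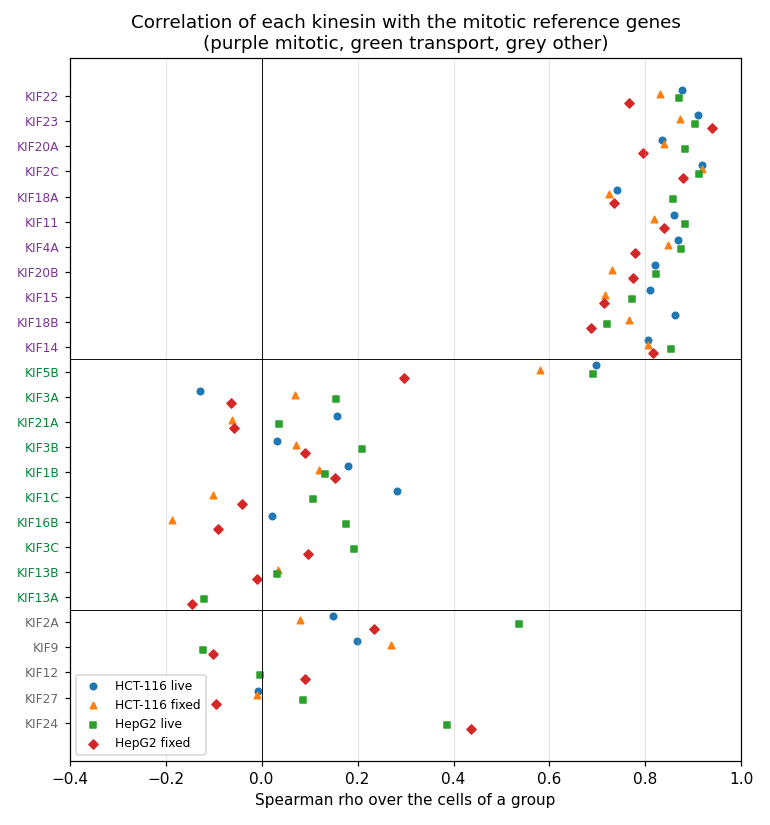
Spearman's rho over the cells of a group between each kinesin and the mean log2(TPM + 1) of the mitotic reference genes, 1 marker per group where the mean was at least 1 TPM. Mitotic kinesins lie between 0.69 and 0.94, and KIF5B is the transport kinesin that stands apart in 3 of the 4 groups.

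**Figure D5:**
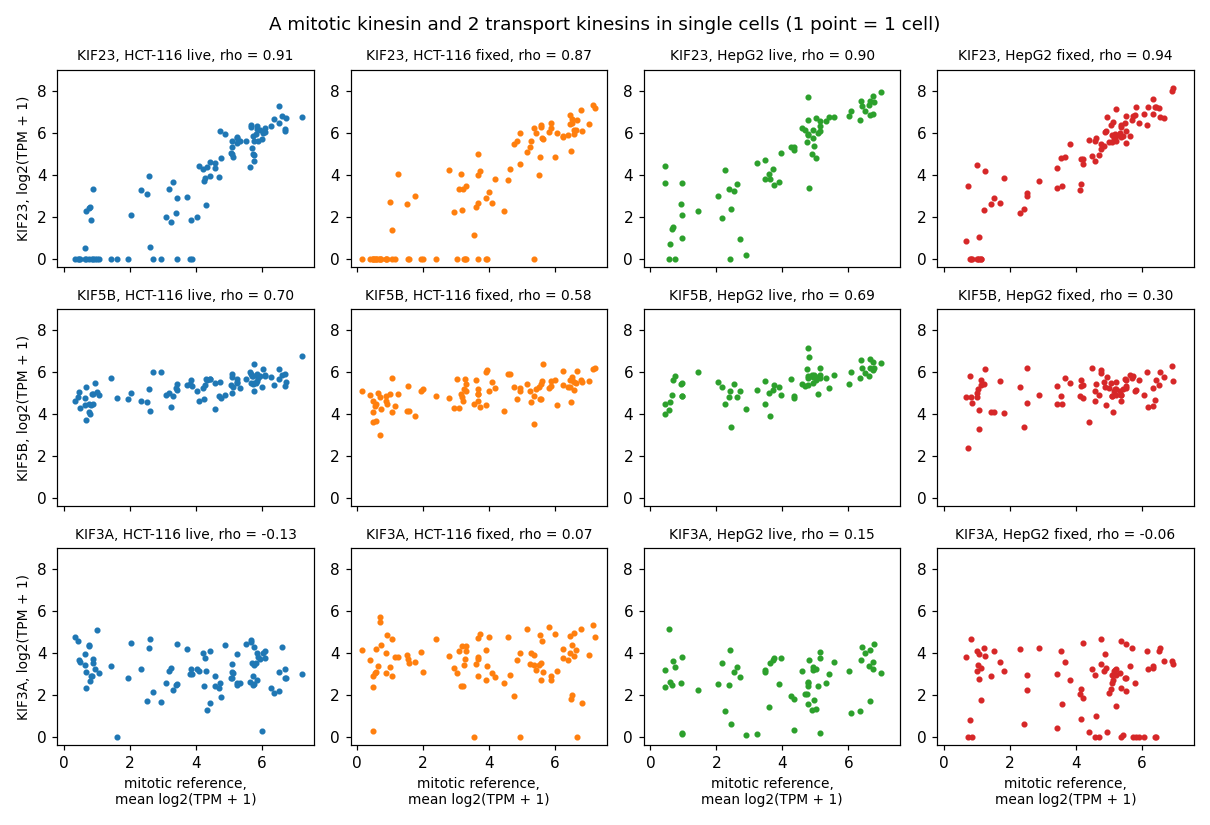
log2(TPM + 1) of KIF23, KIF5B and KIF3A in single cells (1 point per cell) against the mean log2(TPM + 1) of the mitotic reference genes, 1 column per group. KIF23 climbs from 0 to a highest cell of 276 TPM, KIF5B climbs by less and never reaches 0, and KIF3A shows no slope (rho −0.13 to 0.15).

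The transcript tables gave the RefSeq transcripts behind some of these genes, as CPM (read counts scaled to the total of a cell, not divided by length). KIF22 reads were assigned almost wholly to NM_007317.2, with 97.1 to 98.1% of its CPM over the groups, and KIF2C reads to NM_006845.3, with 90.5 to 93.5%. KIF23 was spread over more transcripts, with NM_004856.6 at 46.7% before and 46.8% after fixation in HCT-116, and at 35.4% and 27.96% in HepG2. XM_017022733.1, a predicted transcript, held 26.2% and 26.3% of it in HCT-116 and the larger share in HepG2, 43.9% and 38.7%. KIF1B was divided between NM_015074.3 and NM_183416.3. NM_015074.3 took 59.3% before and 64.9% after fixation in HCT-116, and 51.5% and 35.7% in HepG2. Its median per cell was 54.2% in 66 live HepG2 cells (quartiles 17.1 and 72.3%) and 24.8% in 78 fixed ones (quartiles 0 and 64.8%). The quartiles of the groups overlapped, and at a median of 40.8 and 42.04 KIF1B reads per cell the share in 1 cell is imprecise.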

How the data were processed

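Single cells of HCT-116 and HepG2, live or fixed, were sequenced by Smart-seq2. Per the study's methods and processing notes, the authors checked reads with FastQC, quantified them with kallisto 0.46.0 against GRCh38, and kept cells above a minimum of detected genes. Single cells were sorted, with a dead-cell stain used for the live sort. They deposited TPM per gene, summarised from transcripts, and CPM per transcript, in separate tables for each line. Columns were assigned to groups by line and treatment only. Total reads were read from the smallest common step of the deposited CPM, to the nearest 0.1 M.

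Levels were means and SDs over cells, and differences log2 ratios of group means with a pseudocount of 0.1 TPM for genes with a mean of at least 1 TPM. Size was called at 2-fold. With 1 sample per group no test was run. Detection shares have exact Clopper-Pearson 95% intervals. Correlations were Spearman's rho on log2(TPM + 1). Alternatives were pseudocount, filter, scaling, pairing on reads, roles, detection limit, thinning and leaving out the highest cell of a gene. The computation of the differences was checked on simulated data. Transcripts were matched to genes by RefSeq accession where at least 95% of cells agreed between the tables, for 18 of 21 and 19 of 26 kinesins compared. A search of protein motifs was not run, since protein sequences were not used here. Named with values were mitotic and transport kinesins with a mean of at least 1 TPM in any group, kinesins past 2-fold and partners past 2-fold. KIF2A, KIF9, KIF12, KIF24 and KIF27 were named after their values were seen. The members, roles and lists were chosen with earlier results of these data known. Python 3.11.15, pandas 2.3.3, numpy 2.4.6, scipy 1.17.1 and matplotlib 3.10.9 were used.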

Additional observations from a re-analysis of the deposited data

How the results depend on the processing

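No paired analysis was possible because the numbers of the columns do not tie a live to a fixed cell, and the results come from no test. The number of transport kinesins at least 2-fold lower in fixed HCT-116 cells, 0 as reported, was 1 after rescaling by the median ratio, 1 without ribosomal RNA genes and 1 in cells paired on total reads, each time KIF1C, which relative to all genes moved only from −1.06 to −0.97, −1.05 and −1.18, and 2 without the filter on low values (KIF3C and KIF5A, both under 1 TPM there). Without the filter, 1 transport kinesin was at least 2-fold higher in fixed HepG2 cells, KIF5C, as reported 0. The number of other kinesins 2-fold lower in HepG2, as reported 0, was 1 after rescaling by the median ratio and 1 without the highest fixed cell of each gene, each time KIF12. The median of the 3 other kinesins in HCT-116 relative to all genes, −0.28, was 0.28 in paired cells. The median difference of mitotic kinesins in HepG2 relative to all genes, −0.29, was −0.061 without the filter, which compares all listed genes, 0.015 for means of log2(TPM + 1) and 0.35 in paired cells, and the cause was not tested beyond the reference levels given with the pairs. The correlation of the differences with length in HepG2, 0.59, was 0.38 for means of log2(TPM + 1) and 0.15 in paired cells, both chosen after seeing the data. The partner counts were recomputed after seeing the data. In HCT-116 the mitotic partners 2-fold higher, 1, were 0 with a pseudocount of 1 TPM and for means of log2(TPM + 1) and 2 in paired cells, and those lower, 0, were 1 without ribosomal RNA genes. The transport partners 2-fold lower, 4, were 7 after rescaling by the median ratio and 8 without ribosomal RNA genes. In HepG2 the mitotic partners in paired cells were 3 higher and 0 lower, against 0 and 1. The transport partners higher, 1, were 0 with a pseudocount of 1 TPM, for means of log2(TPM + 1), after rescaling by the median ratio and without the highest fixed cell, and 2 in paired cells and without the highest live cell, and those lower, 3, were 5 without the filter. The cause was not tested. Of the summary values recomputed, the 245 others stayed within a set limit. It was the spread over cells or genes, 1.5 times for counts, or 0.2 for the correlations with length and GC content. Of the values of single genes, 613 stayed within their spread or interval and 70 moved. Of those, 43 moved at a detection limit of 1 TPM, 12 in paired cells and 15 under thinning. Thinning was added after seeing the data. The spread over cells was wide, so staying within it does not show that a value is stable. The difference of KIF18A in HepG2 went from −0.19 to 0.92 in paired cells, against an SD over cells of 1.73. No difference past 2-fold changed sign, but smaller ones did, for 11 of 26 kinesins in paired HepG2 cells (among them KIF18A, KIF22, KIF2C and KIF5B), 7 of 26 in HepG2 after rescaling by the median ratio and 7 of 21 in HCT-116 without ribosomal RNA genes. Leaving out the identical HepG2 columns moved none of the values recomputed without them beyond its spread. Depth limits the genes under about 1 TPM, where a few reads decide detection.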
